A study of Mus musculus with 10 samples.

Results

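Metabolic and steroid nuclear receptors are transcription factors that bind a small lipophilic ligand and then change the transcription of the genes they sit on. The 10 receptors described here, Nr1i2, Nr1i3, Ppara, Ppard, Pparg, Nr1h3, Nr1h4, Rxra, Nr3c1 and Esr1, were taken by gene symbol from the 35275 genes of the expression table, and each symbol matched 1 gene. They were measured by mRNA sequencing of jejunal epithelial cells from mice with an inducible, gut-specific loss of MYO5B, a motor protein that carries membrane cargo to the apical surface of enterocytes. All 10 mice carried VillinCreERT2 and MYO5Bflox/flox on a C57BL/6 background, were labelled as adult males, and were sampled on day 4. The 3 Non_KO mice (numbers 2, 4 and 5) received corn oil without tamoxifen and so kept an uninduced Cre. The 4 Tmx_KO mice (3, 5, 6 and 7) received 2 mg tamoxifen and the vehicle of the later treatment, and the 3 ipL_KO mice (1, 4 and 5) received 2 mg tamoxifen and lysophosphatidic acid (LPA) at 3 mg/kg by intraperitoneal injection. Tamoxifen was given only to the knockout groups, so the effects of the drug and of the deletion cannot be told apart. The villin promoter restricts Cre to the gut epithelium, and the CreERT2 protein carries a modified ligand-binding domain of the human estrogen receptor. The description of ipL_KO1 names the vehicle in one place and LPA in another, and the library was kept in the group its title gives.

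Most of these receptors act as pairs with RXRα, the product of Rxra, on DNA elements made of 2 copies of a hexamer (AGGTCA), and the spacing of the copies helps to select the pair. In the small intestine PXR (Nr1i2) and CAR (Nr1i3) induce enzymes and pumps that clear drugs and other foreign compounds, the PPARs respond to fatty acids, LXRα (Nr1h3) senses oxysterols and controls sterol transport, and FXR (Nr1h4) senses bile acids. The glucocorticoid receptor (Nr3c1) and the estrogen receptor α (Esr1) bind steroids and act as homodimers.

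Sequences are shown for Nr1h3, the receptor that changed most clearly, for Rxra, the shared partner, and for 3 of the 4 PXR and CAR targets with the lowest fold changes, those whose promoter window held a match to a paired element. Cyp2b10, the other of the 4, had no match and is not shown. They come from RefSeq promoters on build GRCm38.p6 and are written 5′ to 3′ on the strand of the gene. Capitals mark the best match to a pair of hexamers in direct repeat, where DR1, DR3 and DR4 have 1, 3 and 4 bases between the copies. A match allowed up to 2 mismatches in the 12 bases of both hexamers, on either strand. Among 32851 promoter windows of 250 bases, 3.24% held a DR1, 2.60% a DR3, 2.57% a DR4, and 14.0% an exact hexamer. A match is a description of letters and not a binding site.
Cyp3a11, chr5:145879984-145880053, minus strand, DR4 with 1 mismatch, 172 to 157 bases before the start: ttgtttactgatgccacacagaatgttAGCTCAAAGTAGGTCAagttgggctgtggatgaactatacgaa
Cyp3a25, chr5:146009760-146009829, minus strand, DR1 with 1 mismatch, 183 to 171 bases before the start: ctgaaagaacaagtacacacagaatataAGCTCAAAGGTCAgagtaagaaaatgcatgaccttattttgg
Cyp2c55, chr19:39006918-39006987, plus strand, DR3 with 2 mismatches, 74 to 60 bases before the start: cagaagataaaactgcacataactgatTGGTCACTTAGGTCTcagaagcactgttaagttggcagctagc
Rxra, chr2:27709189-27709258, plus strand, before a second RefSeq start within the gene, DR1 with 2 mismatches, 75 to 63 bases before that start: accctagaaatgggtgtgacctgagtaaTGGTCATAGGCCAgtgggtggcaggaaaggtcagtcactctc
Nr1h3, chr2:91195152-91195366, minus strand, 250 to 36 bases before a RefSeq start within the gene, with no such element and 0 exact hexamers: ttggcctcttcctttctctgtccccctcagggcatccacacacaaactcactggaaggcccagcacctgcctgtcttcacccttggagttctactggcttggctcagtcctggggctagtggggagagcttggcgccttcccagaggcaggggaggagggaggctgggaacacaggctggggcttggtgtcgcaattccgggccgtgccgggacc

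Expression is given as FPKM, the fragments per kilobase of gene scaled to all fragments counted in the library, which allows levels to be compared between genes. Each library held between 10949420 and 24470409 reads on genes. Non_KO2 and Tmx_KO3 stood apart: they detected 12242 and 12601 genes against 17309 to 18267 in the others, and 17.4% and 18% of their reads were mitochondrial against 1.98% to 3.50%. The fold changes of the receptors between Tmx_KO and Non_KO, the counts of receptors called and the list medians that moved most are therefore also given without these 2 libraries. Those fits rest on Non_KO4 and Non_KO5 as the only control mice. Tmx_KO3 and ipL_KO1, although labelled male, had 0 reads on 4 Y-linked genes, and their Xist levels were 8.41 and 15.1 FPKM. Myo5b itself lay between 16.5 and 32.0 FPKM in Non_KO, between 10.5 and 13.6 in Tmx_KO and between 10.3 and 11.7 in ipL_KO, with no overlap of Non_KO and either knockout group. All 10 enterocyte markers were detected, and their summed level was 21572 to 31811 FPKM in Non_KO, 7992 to 21015 in Tmx_KO and 10726 to 25402 in ipL_KO. The summed level of 8 proliferation markers was 56.0 to 111 FPKM in Non_KO, 165 to 296 in Tmx_KO and 137 to 214 in ipL_KO. The 14 immune cell markers summed to 54.8 to 97.5 FPKM in Non_KO, 7.55 to 34.8 in Tmx_KO and 24.5 to 66.9 in ipL_KO, the 13 stromal and endothelial markers to at most 11.3 FPKM in any library, and the 5 adipocyte markers to at most 0.227. The 5 hepatocyte markers summed to at most 16.2 FPKM except in Tmx_KO7, at 58.6. Their part in the receptor values was not tested, and in bulk tissue fewer cells of a type and less RNA per cell cannot be told apart.

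In Non_KO the receptors fell into an upper and a lower set. Nr1h3 (55.7 ± 18 FPKM, mean ± SD, n = 3), Nr1i2 (52.2 ± 22.5), Ppard (41.8 ± 12) and Rxra (33.7 ± 9.39) formed the upper set, in which neighbours in this order overlapped while every Nr1h3 library lay above every Rxra library, and the lowest Rxra library lay above every library of the next receptor. The lower set held Nr1h4 (11.6 ± 7.12), Nr1i3 (9.76 ± 8.29), Nr3c1 (8.31 ± 5.04), Pparg (6.98 ± 4.16) and Ppara (1.98 ± 1.47), and neighbours within it overlapped. In Tmx_KO the order became Nr1i2 (40.3 ± 9.51 FPKM, n = 4), Ppard (25.5 ± 9.14), Nr1h4 (24.1 ± 13.5), Rxra (21.9 ± 3.42), Nr1h3 (17.6 ± 6.09), Pparg (11.8 ± 3.85), Nr1i3 (7.80 ± 5.39), Nr3c1 (7.23 ± 3.07) and Ppara (3.98 ± 2.35), with every neighbouring pair overlapping. By mean, Nr1h3 ranked 1 in Non_KO and 5 in Tmx_KO, and Nr1h4 ranked 5 and 3, but the top rank of Nr1h3 rested on Non_KO2, since Nr1h3 lay below Nr1i2 and Ppard in both Non_KO4 and Non_KO5. The order in ipL_KO was Nr1i2 (43.0 ± 8.91 FPKM, n = 3), Nr1h4 (29.6 ± 8.75), Rxra (21.0 ± 3.46), Ppard (21.0 ± 6.08), Nr1h3 (14.3 ± 1.41), Pparg (12.2 ± 3.16), Nr1i3 (6.56 ± 4.68), Nr3c1 (5.71 ± 2.60) and Ppara (2.78 ± 1.13). Esr1 was last in each group, with at most 4 reads in any library, and was below the level required for a test. The remaining 9 receptors were tested.

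**Figure D1:**
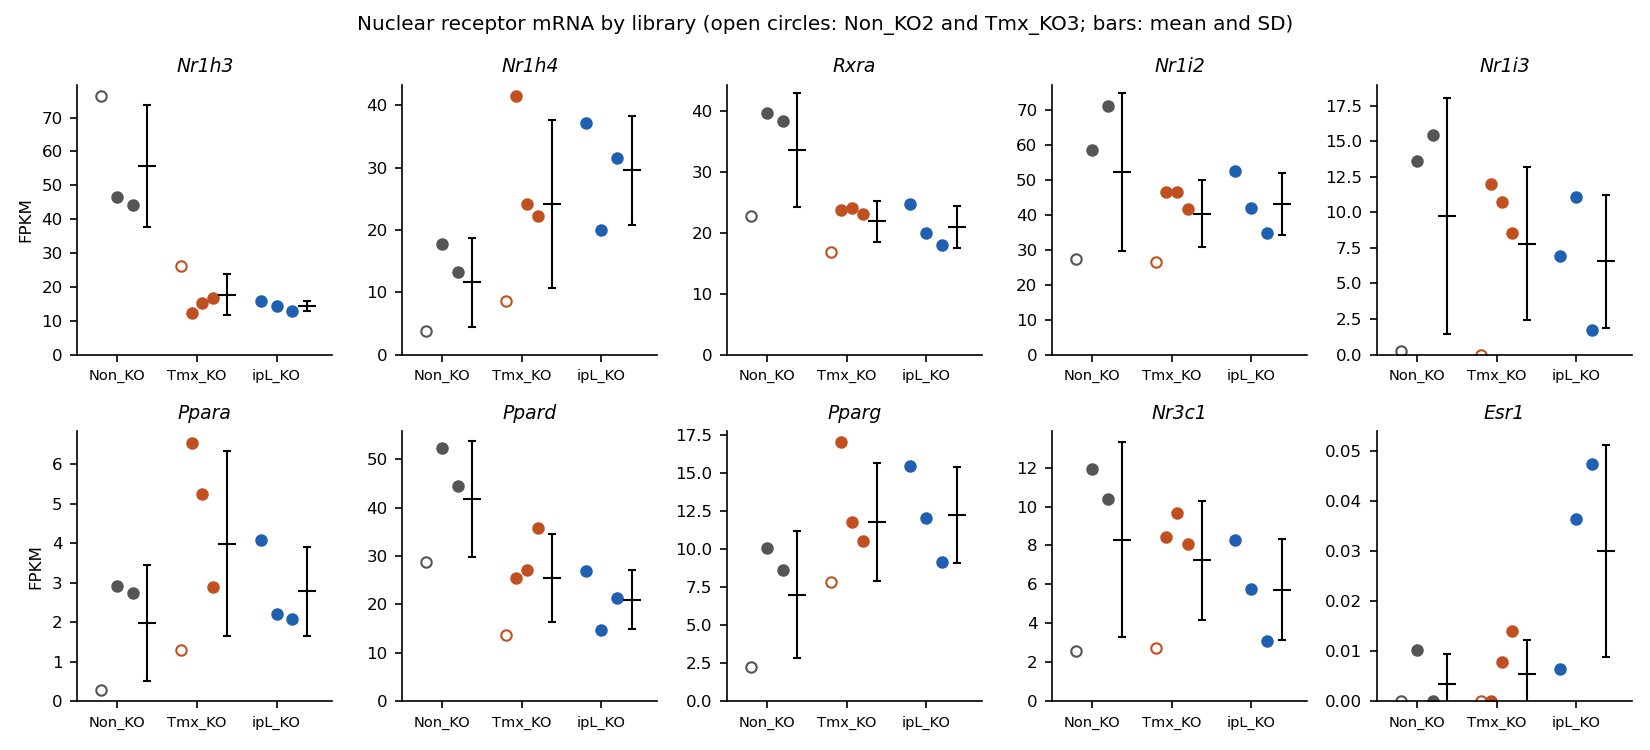
Level of each of the 10 receptors in every library, in FPKM on the vertical axis, with the libraries on the horizontal axis and grouped as Non_KO, Tmx_KO and ipL_KO, open circles for Non_KO2 and Tmx_KO3, and bars for the mean and SD of each group. Nr1h3 lies between 44.1 and 76.4 FPKM in Non_KO and between 12.2 and 26.3 in the knockout libraries, and Nr1h4 reaches its highest levels, 41.4 and 37.2 FPKM, in Tmx_KO5 and ipL_KO1.

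The comparison of Tmx_KO with Non_KO asks which receptors differ 4 days after the deletion was induced. Nr1h3 fell, and it was the only tested receptor to pass an adjusted p of 0.05 with all libraries. By limma on log2(FPKM + 0.1), which understates the change of low genes, 1 of 9 receptors was called, against 2.01% of the 15729 genes tested. The groups of 1 of the 9 receptors did not overlap, against 17.2% of genes. The median log2 fold change of the 9 receptors was -0.30, with 3 higher and 6 lower, whereas the median over all genes was 0.29. Median-ratio scaling of the libraries, as DESeq2 uses, brought the median over all genes to 0.04, and 1 receptor, Rxra in place of Nr1h3, was then called against 3.80% of genes. Without Non_KO2 and Tmx_KO3, 1 receptor was called against 4.95% of genes, and the groups of 8 receptors did not overlap (6 lower and 2 higher in Tmx_KO) against 55.9% of genes. The count tests on the recovered reads called 0 receptors with edgeR, against 2.82% of genes, and 4 with DESeq2 (Nr1h3, Rxra, Ppard and Nr1i2, all lower), against 12.5%.

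Nr1h3 (chromosome 2, 91184061-91202834, GRCm38), whose product LXRα turns on sterol efflux genes, was present at 76.4, 46.7 and 44.1 FPKM in Non_KO2, Non_KO4 and Non_KO5. It was present at 26.3, 12.2, 15.4 and 16.7 FPKM in Tmx_KO3, Tmx_KO5, Tmx_KO6 and Tmx_KO7, and at 15.7, 14.3 and 12.9 FPKM in ipL_KO1, ipL_KO4 and ipL_KO5. Every knockout library, with or without LPA, lay below every Non_KO library. The log2 fold change of Nr1h3 between Tmx_KO and Non_KO was -1.67 (SE 0.32, 95% interval -2.38 to -0.95, limma's adjusted p = 0.0323), and it was -1.63 without Non_KO2 and Tmx_KO3 (adjusted p = 0.00958). The call held with quantile normalization (-1.78, adjusted p = 0.0389) and with DESeq2 (-1.94, adjusted p = 0.00629), but was lost with median-ratio scaling (-1.96, adjusted p = 0.0548) and with edgeR (-1.92, adjusted p = 0.0545). Leaving out single libraries kept the value of Nr1h3 between -1.88 and -1.42, but the call remained only without Tmx_KO3, and the adjusted p without any 1 of the other 9 libraries reached at most 0.105. Macrophages also express Nr1h3. The macrophage marker C1qa was at 67.9 FPKM in Non_KO2 and 29.2 in Tmx_KO3, the libraries with the highest Nr1h3 of their groups, and at 48.6 in ipL_KO5, the library with the second lowest Nr1h3 of all. Adgre1 and Cd68, also on the macrophage list, were at 0 in Non_KO2 and Tmx_KO3. These libraries detected only 12242 and 12601 genes, so a 0 there does not show absence. The 6 markers of the list summed to 6.94 to 72.9 FPKM in Non_KO, 4.73 to 30.4 in Tmx_KO and 12.3 to 60.3 in ipL_KO. Against Non_KO, 3 of the markers were higher and 3 lower in Tmx_KO, with a median log2 fold change of -0.29. In ipL_KO all 6 were higher, with a median of 0.91 against 0.41 for all genes. The part of these markers in the Nr1h3 values was not tested.

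The second LXR gene, Nr1h2, which encodes LXRβ, was at 22.1, 58.3 and 60.3 FPKM in Non_KO and at 11, 36.2, 30.8 and 43.8 FPKM in Tmx_KO. The ratio of Nr1h3 to Nr1h2 was 3.47, 0.80 and 0.73 in the Non_KO libraries, 2.39, 0.34, 0.50 and 0.38 in Tmx_KO, and 0.40, 0.39 and 0.85 in ipL_KO. The high ratios were those of Non_KO2 and Tmx_KO3, and among the other 8 libraries ipL_KO5 alone lay above the Non_KO values.

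Nr1h4, which encodes the bile acid receptor FXR, was present at 3.78, 17.7 and 13.3 FPKM in Non_KO, at 8.57, 41.4, 24.1 and 22.3 FPKM in Tmx_KO, and at 37.2, 20.0 and 31.5 FPKM in ipL_KO. Tmx_KO3 was the only knockout library within the Non_KO range, and all 3 ipL_KO libraries lay above it. Tmx_KO exceeded Non_KO in Nr1h4 by a log2 fold change of 1.11 (SE 0.61, 95% interval -0.24 to 2.45, limma's adjusted p = 0.376). Without Non_KO2 and Tmx_KO3 the value of Nr1h4 was 0.87 (0.04 to 1.70, adjusted p = 0.178), so the difference did not pass the test. Within each library, Nr1h4 lay at 0.0494, 0.380 and 0.301 times the level of Nr1h3 in Non_KO, and at 0.326, 3.40, 1.57 and 1.33 times in Tmx_KO. In ipL_KO this ratio of Nr1h4 to Nr1h3 was 2.36, 1.40 and 2.44. LXRα mRNA was thus the more abundant of the pair in all Non_KO libraries and in Tmx_KO3, and FXR mRNA in the other 6. This ratio and the others below were chosen after the values were seen and carry no test.

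**Figure D2:**
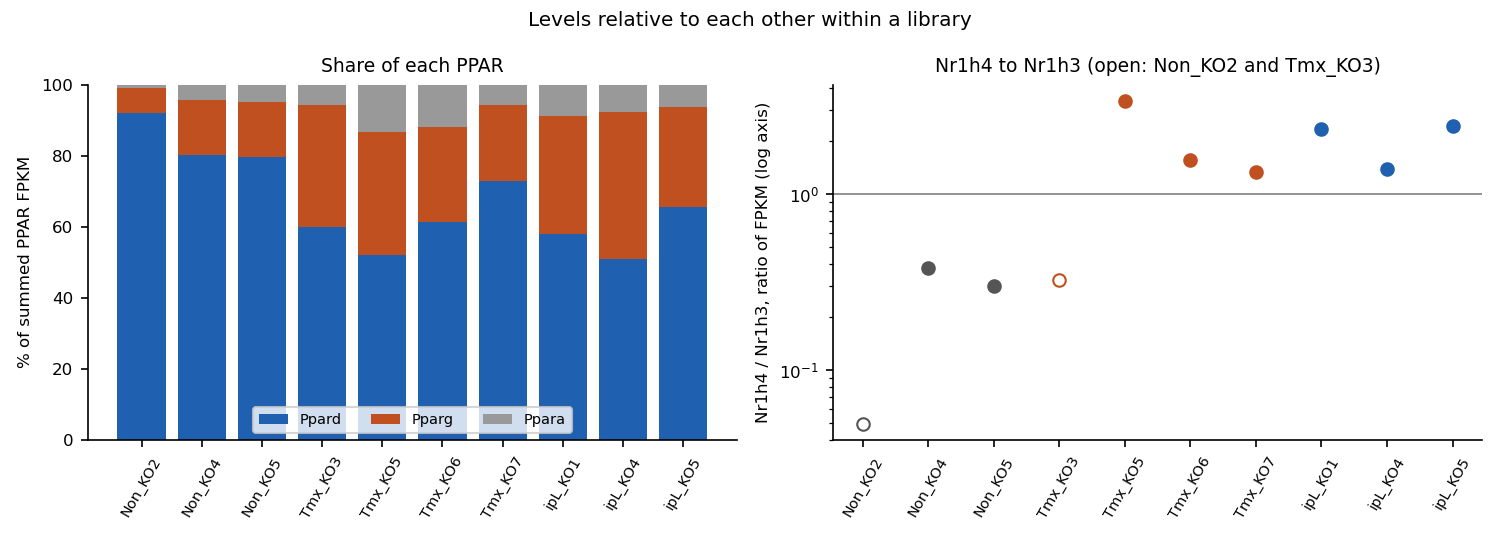
Ratios within each library, with the 10 libraries on the horizontal axes: stacked bars give the share of each PPAR gene in their summed FPKM in percent, and points give the ratio of Nr1h4 to Nr1h3 FPKM on a log axis, open for Non_KO2 and Tmx_KO3. The ratio of Nr1h4 to Nr1h3 is at most 0.380 in Non_KO and at least 1.33 in every knockout library except Tmx_KO3 (0.326), and the share of Ppard is at least 79.7% in Non_KO and at most 72.9% in the knockout libraries.

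Rxra, the shared partner of the receptors above, was present at 22.9, 39.8 and 38.4 FPKM in Non_KO, at 16.9, 23.7, 24.1 and 23.1 FPKM in Tmx_KO, and at 24.8, 20.0 and 18.1 FPKM in ipL_KO. Non_KO2 lay within the range of the knockout libraries, and the other Non_KO libraries lay above all of them. In Tmx_KO against Non_KO, Rxra stood at a log2 fold change of -0.59 (SE 0.29, 95% interval -1.22 to 0.04, limma's adjusted p = 0.316). Its call depended on the scaling: Rxra was called with median-ratio scaling (-0.88, adjusted p = 0.0393), with quantile normalization (-0.73, adjusted p = 0.0437) and with DESeq2 (-0.88, adjusted p = 2.73e-06), and missed the threshold without Non_KO2 and Tmx_KO3 (-0.72, adjusted p = 0.0592) and with edgeR (adjusted p = 0.0633). Rxra held 63.8% to 68.1% of the summed FPKM of the 3 RXR genes in Non_KO, 56.3% to 63.4% in Tmx_KO and 57.0% to 63.2% in ipL_KO, and so remained the main RXR mRNA in every library.

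The 3 PPAR genes encode fatty acid receptors: PPARα drives fatty acid oxidation and ketogenesis, PPARδ is the broadly expressed form, and PPARγ promotes lipid storage. Ppard was present at 28.7, 52.2 and 44.5 FPKM in Non_KO, at 13.6, 25.4, 27.0 and 35.9 FPKM in Tmx_KO, and at 26.9, 14.7 and 21.3 FPKM in ipL_KO. All ipL_KO libraries lay below Non_KO, whereas Tmx_KO7 lay above Non_KO2. For Ppard, limma gave a log2 fold change in Tmx_KO of -0.75 (SE 0.38, 95% interval -1.59 to 0.09, adjusted p = 0.336), and only DESeq2 of the tests run called it (-1.01, adjusted p = 0.0068), the value without Non_KO2 and Tmx_KO3 being -0.73 (adjusted p = 0.158). Ppara was low, at 0.292, 2.91 and 2.74 FPKM in Non_KO, 1.28, 6.53, 5.23 and 2.88 in Tmx_KO, and 4.08, 2.20 and 2.07 in ipL_KO, with overlapping groups and a log2 fold change of 1.22 in Tmx_KO (SE 0.78, adjusted p = 0.46), or 0.69 without Non_KO2 and Tmx_KO3 (adjusted p = 0.345). Pparg was at 2.24, 10.1 and 8.61 FPKM in Non_KO, 7.82, 17, 11.8 and 10.5 in Tmx_KO, and 15.4, 12 and 9.13 in ipL_KO. Its groups overlapped, and the log2 fold change of Pparg in Tmx_KO was 0.95 (SE 0.51, adjusted p = 0.368), or 0.45 in the 8 libraries (adjusted p = 0.361). Ppard made up 91.9%, 80.1% and 79.7% of the summed PPAR level in the Non_KO libraries. Its share was 59.9%, 51.9%, 61.3% and 72.9% in Tmx_KO, and 57.9%, 50.8% and 65.5% in ipL_KO. The share of Ppard was below every Non_KO value in all 7 knockout libraries, the 2 that stood apart included.

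The xenobiotic receptors did not pass the test. Nr1i2, which encodes PXR, was present at 27.3, 58.5 and 70.9 FPKM in Non_KO, at 26.4, 46.6, 46.4 and 41.6 FPKM in Tmx_KO, and at 52.5, 41.9 and 34.7 FPKM in ipL_KO. Its lowest values in both Non_KO and Tmx_KO were those of the libraries that stood apart. The log2 fold change of Nr1i2 in Tmx_KO was -0.30 (SE 0.37, 95% interval -1.11 to 0.51, limma's adjusted p = 0.715) and without Non_KO2 and Tmx_KO3 -0.52 (adjusted p = 0.167), and DESeq2 alone called it (-0.62, adjusted p = 0.0439). Nr1i3, which encodes CAR, was at 0.243, 13.6 and 15.4 FPKM in Non_KO, at 0, 12, 10.7 and 8.54 FPKM in Tmx_KO, and at 6.93, 11.1 and 1.71 FPKM in ipL_KO. The 0.243 FPKM of Nr1i3 in Non_KO2 rested on 8 reads and the 0 in Tmx_KO3 on none, whereas ipL_KO5 held 68 reads and the other libraries 505 to 805. With this spread the log2 fold change of Nr1i3 in Tmx_KO, -0.36, had a 95% interval from -4.35 to 3.63 (SE 1.80, adjusted p = 0.942), and without Non_KO2 and Tmx_KO3 the value was -0.49 (adjusted p = 0.684). The gene Tomm40l lies over Nr1i3 on the opposite strand, with 17.9% as many reads as Nr1i3, and the counting was not stated to use strand.

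Of the steroid receptors, Nr3c1 was present and Esr1 was not detectable above a few reads. Nr3c1, which encodes the glucocorticoid receptor, was at 2.56, 11.9 and 10.4 FPKM in Non_KO, at 2.74, 8.43, 9.66 and 8.09 FPKM in Tmx_KO, and at 8.30, 5.74 and 3.10 FPKM in ipL_KO. The groups overlapped, with the lowest values again in Non_KO2 and Tmx_KO3, and the log2 fold change of Nr3c1 in Tmx_KO was -0.07 (SE 0.63, 95% interval -1.46 to 1.32, limma's adjusted p = 0.972), or -0.35 without Non_KO2 and Tmx_KO3 (adjusted p = 0.588). Esr1 had 0, 1 and 0 reads in Non_KO, 0, 0, 1 and 2 in Tmx_KO, and 1, 4 and 4 in ipL_KO. These counts do not support a comparison.

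**Figure D3:**
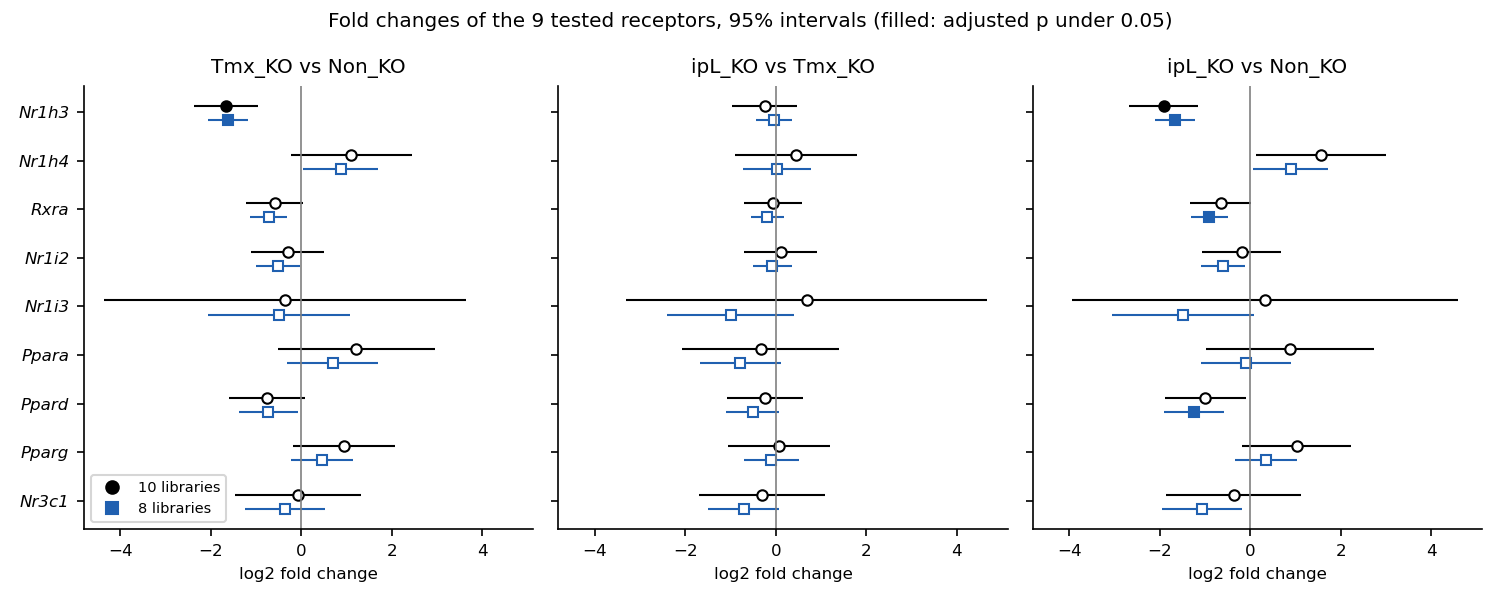
Log2 fold change with its 95% interval (horizontal axis) of the 9 tested receptors, from limma on all 10 libraries (black circles) and on 8 libraries without Non_KO2 and Tmx_KO3 (blue squares), where filled symbols mark an adjusted p under 0.05. Nr1h3 is filled in both fits of Tmx_KO against Non_KO (-1.67 and -1.63) and of ipL_KO against Non_KO (-1.91 and -1.66), and no receptor is filled for ipL_KO against Tmx_KO, where Nr1h3 stands at -0.24 and -0.03.

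The comparison of ipL_KO with Tmx_KO asks whether LPA changed the receptors in mice that had all received tamoxifen. None of the 9 tested receptors passed the test. Limma called 0 receptors and 0% of the 15729 genes, with 459 genes at an unadjusted p under 0.05, and without Non_KO2 and Tmx_KO3 it again called 0 receptors and 0% of genes. EdgeR called 0% of genes and DESeq2 0.0589%, or 7 genes, none of them a receptor. No receptor had groups that did not overlap, against 4.16% of genes. The median log2 fold change of the 9 receptors was -0.06, with 4 higher and 5 lower, and that of all genes was 0.11. In the 8 libraries left without Non_KO2 and Tmx_KO3 the median was -0.18, with 1 higher and 8 lower, and that of all genes was -0.11. The 95% intervals show how far a difference could reach: -0.96 to 0.47 for Nr1h3, -0.69 to 0.57 for Rxra, -0.70 to 0.92 for Nr1i2, -1.08 to 0.60 for Ppard, and -1.05 to 1.20 for Pparg. They were wider for Nr1h4 (-0.89 to 1.80), Nr3c1 (-1.69 to 1.09), Ppara (-2.07 to 1.40) and Nr1i3 (-3.31 to 4.67). Of the 9 intervals, those of Nr1h3, Rxra and Nr1i2 lay within a log2 difference of 1 in both directions.

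The LPA-treated knockout mice were also set against the same Non_KO mice, so both contrasts share their controls. Limma called 1 of 9 receptors, Nr1h3, against 2.32% of genes, and the groups of 3 receptors (Nr1h3, Nr1h4 and Ppard) did not overlap, against 26.9% of genes. The log2 fold change of Nr1h3 was -1.91 (SE 0.34, 95% interval -2.67 to -1.15, adjusted p = 0.0197), and the call was lost without Non_KO4, Non_KO5 or any 1 ipL_KO library, with an adjusted p of at most 0.0981. Nr1h4 stood at 1.56 (SE 0.65, 95% interval 0.12 to 3.00, adjusted p = 0.265) and Pparg at 1.02 (adjusted p = 0.382). Without Non_KO2 and Tmx_KO3, 3 receptors were called against 8.56% of genes: Nr1h3 (-1.66, adjusted p = 0.00588), Rxra (-0.91, adjusted p = 0.0251) and Ppard (-1.24, adjusted p = 0.0383). The same 3 receptors were called after median-ratio scaling, against 3.12% of genes, and in the 8 libraries the groups of 7 receptors did not overlap, 6 of them lower, against 45.0% of genes. EdgeR called 1 receptor, against 2.40% of genes, and DESeq2 3, against 10.2%. The median of the 9 receptors was -0.19 and that of all genes 0.41.

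Among 26 other nuclear receptors, 21 had a level high enough to test. Of these 21, 1 fell and 0 rose between Tmx_KO and Non_KO, against 2.01% of all genes called. The median of the 21 was -0.54, with 6 higher and 15 lower, against 0.29 over all genes. The receptor that fell was Vdr, which encodes the vitamin D receptor, another partner of RXRα. Vdr was present at 54.4, 69.5 and 65.1 FPKM in Non_KO, at 11.7, 18.2, 27.5 and 28.9 FPKM in Tmx_KO, and at 23.4, 14.4 and 13.8 FPKM in ipL_KO, so that Non_KO did not overlap either knockout group. Its log2 fold change in Tmx_KO was -1.62 (SE 0.36, limma's adjusted p = 0.0485), and the call of Vdr held in 1 of the 10 fits that left out 1 library, the one without Tmx_KO3 (adjusted p up to 0.17 in the others). Vdr stood at -1.46 without Non_KO2 and Tmx_KO3 (adjusted p = 0.0397). Against Non_KO, Vdr in ipL_KO was at -1.90 (adjusted p = 0.0326), a call lost in 7 of the 10 fits without 1 library and kept without Non_KO2, Tmx_KO3 or Tmx_KO7 (adjusted p up to 0.138). Other receptors with large values did not pass: the clock repressor Nr1d1 stood at -2.27 (adjusted p = 0.456) and Nr2f2 at 1.65 (0.313). Nr1d1 overlaps Thra on the opposite strand, which holds 119% as many reads.

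Coregulators bridge the receptors to the transcription machinery. Of 12 tested, 0 passed in Tmx_KO in the main limma fit, against 2.01% of all genes, with 10 higher and 2 lower. Their median was 0.47 against 0.29 for all genes, or 0.27 against 0.21 without Non_KO2 and Tmx_KO3. After median-ratio scaling 7 were higher and 5 lower, with a median of 0.18 against 0.04 for all genes. With all libraries, median-ratio scaling, edgeR and DESeq2 each called 1 coregulator lower and 0 higher, against 3.80%, 2.82% and 12.5% of genes. Ppargc1a, a coactivator of mitochondrial and fasting genes, was at 2.98, 5.17 and 5.82 FPKM in Non_KO, at 0.424, 1.34, 2.02 and 1.32 in Tmx_KO, and at 1.43, 1.10 and 1.38 in ipL_KO. All 7 knockout libraries lay below all Non_KO libraries. The log2 fold change of Ppargc1a in Tmx_KO was -1.90 (limma's adjusted p = 0.0912), or -1.78 (adjusted p = 0.0263) without Non_KO2 and Tmx_KO3. Of the alternative fits, 5 called Ppargc1a, the fit without these 2 libraries included. Ncoa4 (2.22, adjusted p = 0.402), Ncoa3 (0.66, 0.454) and Ncoa2 (0.65, 0.534) did not pass, and Ncoa3 overlaps Sulf2 on the opposite strand.

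In the main limma fit with all libraries, the targets of PXR and CAR held the only genes called lower among the 6 target lists. They also held the lowest fold changes. Other fits of all libraries called genes of other lists lower too. Median-ratio scaling did so for 1 LXR and 1 FXR target, and DESeq2 for 2 LXR, 2 FXR, 1 PPAR and 1 glucocorticoid receptor targets. Of 13 targets tested, 2 fell and 0 rose in Tmx_KO, against 2.01% of all genes called. They were 5 higher and 8 lower, with a median of -0.31 against 0.29 for all genes. Without Non_KO2 and Tmx_KO3, 5 fell and 0 rose, against 4.95% of all genes called. The median was then -0.71 against 0.21 for all genes. With all libraries, median-ratio scaling called 4 of the 13 targets lower, against 3.80% of genes. EdgeR called 4 lower, against 2.82%, and DESeq2 5, against 12.5%. Cyp2c55, a cytochrome P450 of the gut induced by foreign compounds, was at 14.4, 137 and 43.9 FPKM in Non_KO, at 0.366, 1.19, 0.172 and 0.533 FPKM in Tmx_KO, and at 0.328, 0.232 and 0.226 FPKM in ipL_KO. Its log2 fold change in Tmx_KO was -6.29 (SE 0.75, limma's adjusted p = 0.00393), and Cyp2c55 was called in all 10 fits that left out 1 library. Cyp3a25, a member of the drug-oxidising CYP3A family, was at 14.4, 323 and 260 FPKM in Non_KO, at 0.776, 8.53, 1.39 and 1.33 FPKM in Tmx_KO, and at 0.879, 1.47 and 1.13 FPKM in ipL_KO. For Cyp3a25 the log2 fold change was -5.73 (SE 1.06, adjusted p = 0.0274), and 8 of the 10 fits without 1 library lost the call (adjusted p up to 0.126), those without Non_KO2 or Tmx_KO5 keeping it. CYP3A genes are close copies, and reads that fit more than 1 of them may have been split or dropped.

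The classic target of CAR, Cyp2b10, was at 11.1, 223 and 230 FPKM in Non_KO, at 0, 0.938, 3.70 and 6.85 in Tmx_KO, and at 0.171, 0.181 and 0 in ipL_KO, and Cyp3a11, the classic target of PXR, was at 68.3, 901 and 623, at 9.90, 101, 32.9 and 17, and at 24.2, 15.0 and 16.4. Within Non_KO, mouse 2 held far less of both than mice 4 and 5. In the main limma fit with all libraries, Cyp2b10 (-6.01, adjusted p = 0.0631) and Cyp3a11 (-3.62, adjusted p = 0.0713) missed the threshold. Without Non_KO2 and Tmx_KO3 both passed (limma's adjusted p = 0.0125 and 0.0216). Of the alternative fits, 7 called Cyp2b10 and 6 called Cyp3a11, the fit without these 2 libraries included. In ipL_KO Cyp2b10 was at -8.72 against Non_KO (adjusted p = 0.0193) and Cyp2c55 at -6.95 (adjusted p = 0.00279). The call of Cyp2b10 was lost without Non_KO4, Non_KO5 or any 1 ipL_KO library (adjusted p up to 0.1), and that of Cyp2c55 held in all 10 such fits. Cyp3a13, named after its values were seen, was the 1 target of the list that rose in ipL_KO (1.79, adjusted p = 0.0477), and the call was lost without Non_KO2 and Tmx_KO3 (adjusted p = 0.0562), with median-ratio scaling (adjusted p = 0.135) and with edgeR (adjusted p = 0.118). The part of Nr1i2 and Nr1i3 mRNA in the values of these targets was not tested. Of the 10 enterocyte markers, 1 was called in Tmx_KO, against 2.01% of all genes. They were 3 higher and 7 lower, with a median of -0.93 against 0.29 for all genes. The marker called was Lct, the lactase of mature enterocytes. Lct fell from 114, 200 and 241 FPKM in Non_KO to at most 3.57 FPKM in the knockout libraries (-8.32, limma's adjusted p = 0.0093). The part of enterocyte markers in the values of these targets was not tested.

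**Figure D4:**
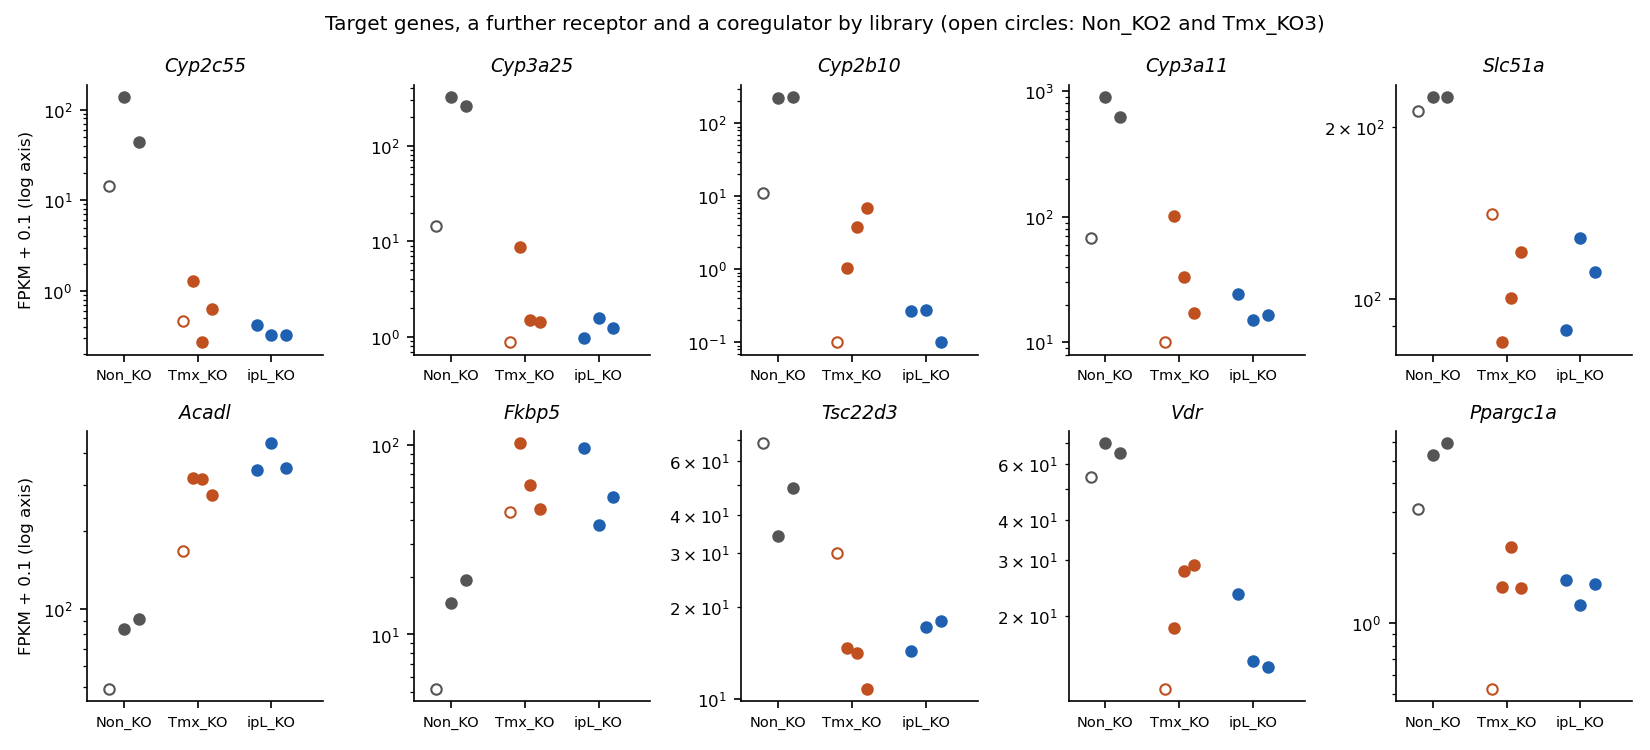
FPKM + 0.1 of 8 target genes, Vdr and Ppargc1a in each library (vertical log axes), with libraries grouped as Non_KO, Tmx_KO and ipL_KO on the horizontal axis and open circles for Non_KO2 and Tmx_KO3. Cyp2c55 is at or above 14.4 FPKM in Non_KO and at or below 1.19 in the knockout libraries, and Acadl is at or below 91.6 FPKM in Non_KO, between 167 and 321 in Tmx_KO and between 345 and 436 in ipL_KO.

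Of 19 PPAR targets, 17 were tested, and 2 rose while 0 fell in Tmx_KO, against 2.01% of all genes called. Their median was -0.23 against 0.29 for all genes, with 7 higher and 10 lower. Of the genes that rose, Acadl, an enzyme of mitochondrial fatty acid oxidation, was at 49.0, 83.2 and 91.6 FPKM in Non_KO, at 167, 321, 317 and 275 FPKM in Tmx_KO, and at 345, 436 and 350 FPKM in ipL_KO. Its groups did not overlap in any of the 3 comparisons. The log2 fold change of Acadl was 1.86 in Tmx_KO (SE 0.32, limma's adjusted p = 0.0218) and 2.38 in ipL_KO (adjusted p = 0.00836), both against Non_KO, and the first was lost in 5 of 10 fits without 1 library (Non_KO4, Non_KO5, Tmx_KO5, Tmx_KO6 or Tmx_KO7, adjusted p up to 0.0801). Vnn1 (-3.04, adjusted p = 0.301) and Cd36 (-1.95, adjusted p = 0.492), which are targets as well, had values in the other direction and did not pass, although Cd36 did without Non_KO2 and Tmx_KO3 (-2.53, adjusted p = 0.033).

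In ipL_KO against Tmx_KO all 17 tested PPAR targets had a value above 0, with a median of 0.66 against 0.11 for all genes, and 0 were called. Without Non_KO2 and Tmx_KO3 this became 11 higher and 6 lower, with a median of 0.12, so the shared direction rested on Tmx_KO3 being in the group.

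The LXR, FXR and steroid receptor targets gave few calls. Of 10 LXR targets, 0 passed, against 2.01% of all genes called. They were 5 higher and 5 lower, with a median of -0.05 against 0.29 for all genes. The list does not separate genes that LXR raises from genes that it lowers, and the part of Nr1h3 in these values was not tested. Npc1l1, which takes up cholesterol from the gut lumen, was at 47.5, 170 and 163 FPKM in Non_KO, at 8.59, 22.5, 48.5 and 56.5 in Tmx_KO, and at 25.6, 22 and 12 in ipL_KO. It stood at -2.02 (adjusted p = 0.153), and Npc1l1 and Smpdl3a (-1.38, adjusted p = 0.226) passed without Non_KO2 and Tmx_KO3 (adjusted p = 0.0455 and 0.0391) and with DESeq2 (adjusted p = 0.00213 and 0.00664), Npc1l1 also with median-ratio scaling (adjusted p = 0.0406). Scd1 (2.27, adjusted p = 0.203) and the sterol efflux pump Abcg5 (-0.44, adjusted p = 0.775) did not pass, and Abcg5 shares its locus with Abcg8 on the opposite strand. Of 6 FXR targets 5 were tested and 0 passed, against 2.01% of all genes called. They were 2 higher and 3 lower, with a median of -1.01 against 0.29 for all genes. Without Non_KO2 and Tmx_KO3 the median was -0.16 against 0.21 for all genes. Slc51a and Slc51b encode the subunits of the basolateral bile acid exporter. Slc51a was at 213, 225 and 225 FPKM in Non_KO, at 141, 84.0, 101 and 121 in Tmx_KO, and at 88.3, 128 and 112 in ipL_KO, a log2 fold change of -1.01 in Tmx_KO (adjusted p = 0.0713, or 0.0364 without Non_KO2 and Tmx_KO3). Slc51b was at 87.9, 117 and 85.5 FPKM in Non_KO, at 11.8, 21.9, 43.0 and 66.5 in Tmx_KO, and at 25.1, 33.4 and 41.7 in ipL_KO (-1.71, adjusted p = 0.117). No knockout library of Slc51a or Slc51b reached the Non_KO levels. Over all genes, 17.2% did not overlap between Tmx_KO and Non_KO, and 26.9% between ipL_KO and Non_KO. Nr1h4 itself did not pass the test, and its part in these values was not tested. Fabp6 (1.17, adjusted p = 0.587) and Nr0b2 (-1.07, adjusted p = 0.547) did not pass.

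Of 10 glucocorticoid receptor targets, 1 rose and 0 fell in Tmx_KO, against 2.01% of all genes called. They were 9 higher and 1 lower, with a median of 0.93 against 0.29 for all genes. Without Non_KO2 and Tmx_KO3 they were 8 higher and 2 lower, with a median of 0.55 against 0.21 for all genes. With all libraries, median-ratio scaling, edgeR and DESeq2 each called 1 target higher, against 3.80%, 2.82% and 12.5% of genes. DESeq2 also called 1 lower. Fkbp5 is induced by the receptor and encodes a chaperone partner of it. Its levels were 5.07, 14.6 and 19.4 FPKM in Non_KO, 44.4, 102, 61.4 and 45.8 FPKM in Tmx_KO, and 95.9, 37.9 and 53.2 FPKM in ipL_KO. Every knockout library was above every Non_KO library. The log2 fold change of Fkbp5 in Tmx_KO was 2.39 (SE 0.51, limma's adjusted p = 0.0438). Of the alternative fits, 7 kept the call of Fkbp5 and 15 lost it. Those that lost it included the limma fit without Non_KO2 and Tmx_KO3 (adjusted p = 0.0537) and all 10 fits without 1 library. Tsc22d3, also known as GILZ and induced by glucocorticoids, lay the other way, at 68.3, 33.9 and 48.9 FPKM in Non_KO, 29.8, 14.6, 14.0 and 10.7 in Tmx_KO, and 14.2, 17 and 17.9 in ipL_KO. For Tsc22d3 the log2 fold change was -1.59 (adjusted p = 0.06, or 0.016 without Non_KO2 and Tmx_KO3). Zbtb16 (1.59, adjusted p = 0.341) and Dusp1 (1.29, adjusted p = 0.259) did not pass. Of 5 estrogen receptor targets 3 were tested and 0 passed, against 2.01% of all genes called. Their median was -0.15 against 0.29 for all genes. Without Non_KO2 and Tmx_KO3 their median became 0.74 against 0.21 for all genes, with 3 higher and 0 lower. Igfbp4 stood at 1.74 (adjusted p = 0.119), Ltf at -0.17 (0.935) and Greb1 at -0.15 (0.95). Igfbp4 rose without Non_KO2 and Tmx_KO3 (adjusted p = 0.043).

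**Figure D5:**
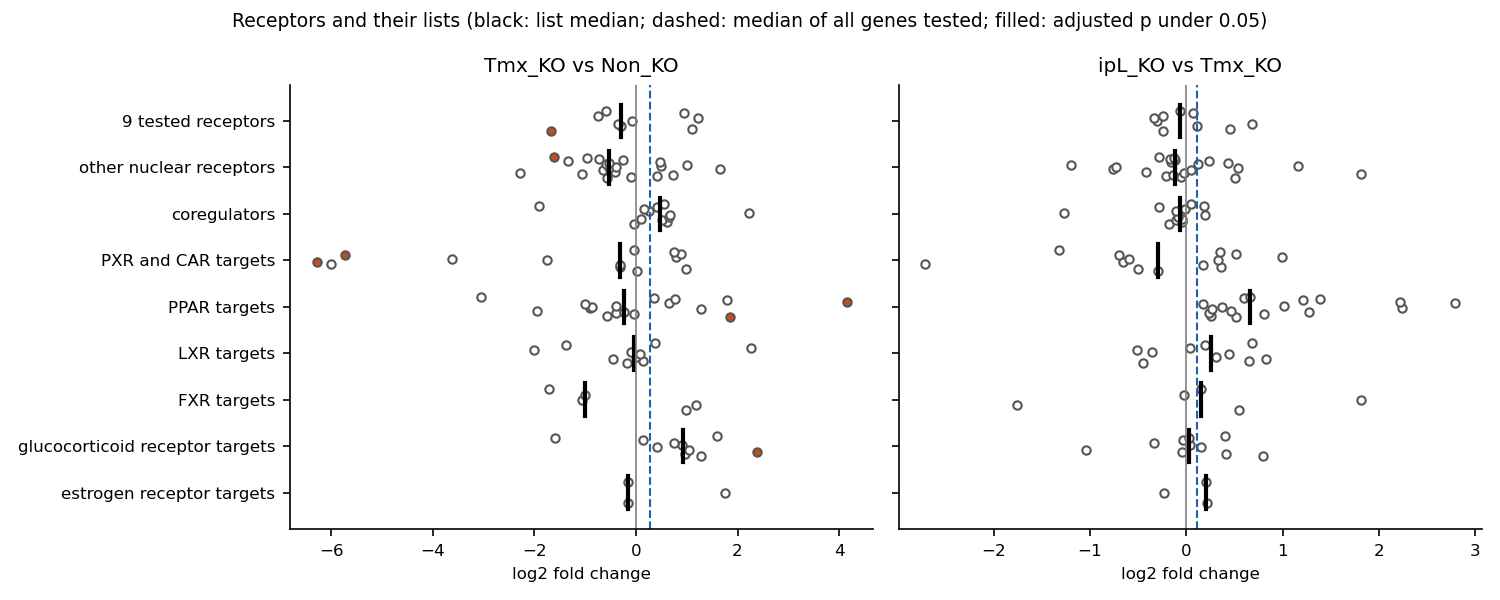
Log2 fold change (horizontal axes) of each tested gene of the receptor, coregulator and target lists, for Tmx_KO against Non_KO and for ipL_KO against Tmx_KO, with 1 point per gene, filled where the adjusted p is under 0.05, a black bar for the list median and a dashed line for the median of all genes. With all libraries, in Tmx_KO against Non_KO, the medians run from -1.01 for the 5 FXR targets to 0.93 for the 10 glucocorticoid receptor targets, beside 0.29 for all 15729 genes, and the PXR and CAR targets reach down to -6.29 at Cyp2c55.

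Of the 10 receptors, 9 had at least 1 promoter window in RefSeq, 14 windows in all, and Nr3c1 had none. Elements were found for Nr1i3 (an inverted repeat with 1 base between the hexamers), Rxra and Nr1h4 (a DR1 each), all with 2 mismatches. The inverted repeat occurred in 0.96% of all windows and the DR1, as given above, in 3.24%. No element of these kinds, nor a glucocorticoid element (AGAACA and TGTTCT, 3 bases apart, in 1.56% of windows), was found in the windows of Cyp2b10, Acadl, Fkbp5 or Vdr.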

How the data were processed

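Jejunal epithelial cells of 10 mice were profiled by poly-T-selected mRNA sequencing. Per the labels and the submitters' processing notes, reads were handled with STAR 2.5, TopHat, HTSeq 0.6.1 and DESeq2 on GRCm38 (mm10), and the authors deposited FPKM for 35275 genes. Their own tables of a gene comparison (fold changes and p-values beside read counts) and of pathway enrichments (p-values) were not used, apart from the deposited read counts. The FPKM were whole multiples of the value of 1 read, within 0.05 of a whole read for 100% of values, and 63 of 63 deposited read counts equalled the recovered ones. The table gave each gene's coordinates. The receptors and all lists of genes were chosen with earlier results of these data known.

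The main test was limma 3.58.1 (R 4.3.3) on log2(FPKM + 0.1) for the 15729 genes whose mean reached 0.1 FPKM, in 1 model of all 3 groups with eBayes trend, two-sided, with Benjamini-Hochberg adjustment over all genes tested. A call is an adjusted p under 0.05. Named genes are all 10 receptors, every gene of a list that passed in Tmx_KO against Non_KO, and otherwise up to 4 of each list with the largest absolute fold change, except some that are not reported here. The mice are separate animals. Alternatives were pseudocounts of 1 and 0.01, filters, median-ratio and quantile scaling, edgeR 4.0.16 and DESeq2 1.42.0 on the recovered reads, 2-group fits, a replicate block, and leaving out libraries. The fits were tested on simulated data. Promoters were the 250 bases before each RefSeq start. Adgre1 was listed in the table under its older symbol Emr1.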

Additional observations from a re-analysis of the deposited data

Results flagged for a closer look

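Among 41 receptors and named genes, 4 had a library in Tmx_KO, the group of 4 mice, whose gap to the nearest other library exceeded Dixon's 95% critical value for 4 samples, a test that chance alone passes in about 1 of 20 groups. Rxra was at 16.9 FPKM in Tmx_KO3 and at 23.1 to 24.1 in the other 3 libraries. Nr2f2 was at 1.79 FPKM in Tmx_KO5 and at 1.31 to 1.39 in the others. Cyp3a25 was at 8.53 FPKM in Tmx_KO5 and at 0.776 to 1.39 in the others. Fabp6 was at 11.1 FPKM in Tmx_KO3 and at 1.12 to 2.30 in the others. For Rxra and Fabp6 the library was Tmx_KO3, which detected 12601 genes and held 18% mitochondrial reads, and the part of these features was not tested.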

How the results depend on the processing

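Of 1448 values of named genes under an alternative, 1221 kept their direction and their side of the threshold, 108 lost and 58 gained a call, and 61 changed sign. The cause of these changes was not tested. Between Tmx_KO and Non_KO the number of genes called was 316, and became 188 with no filter, 598 with median-ratio scaling, 804 with quantile normalization, 1830 with DESeq2, 50 in a fit of 2 groups, 778 without Non_KO2 and Tmx_KO3, and 44 to 403 when 1 library was left out. Between ipL_KO and Non_KO it was 365, and became 626 with quantile normalization, 1489 with DESeq2, 190 with 2 groups, 1346 without Non_KO2 and Tmx_KO3, and 73 to 702 when 1 library was left out. Between ipL_KO and Tmx_KO DESeq2 called 7 genes. Of the receptors in Tmx_KO against Non_KO, quantile normalization called 2, edgeR 0, DESeq2 4, the fit of 2 groups 0, and fits without 1 library 0 to 1. In ipL_KO against Non_KO median-ratio scaling, quantile normalization, DESeq2 and the 8 libraries each called 3 receptors, and fits without 1 library 0 to 1. Mouse numbers were not taken as pairs: fewer than 3 numbers were shared by any 2 groups, and the deviations of same-numbered mice correlated from -0.36 to 0.30. Too few numbers were shared to decide whether same-numbered mice were related. With the replicate block, which left 1 residual degree of freedom, 0 genes and 0 receptors were called in each comparison, and the values that changed sign were Nr1i2 (-0.29), Nr1i3 (-2.04), Pparg (-0.85), Nr1h3 (0.10) and Nr1h4 (-0.66) in ipL_KO against Tmx_KO, Nr1i3 (-1.70) and Ppara (-0.39) in ipL_KO against Non_KO, and Nr1i3 (0.34), Abcg5 (0.65), Nr0b2 (1.46), Ltf (0.39) and Greb1 (0.76) in Tmx_KO against Non_KO. Without Non_KO2 and Tmx_KO3 the sign changed for Nr1i2 (-0.079), Nr1i3 (-0.996) and Pparg (-0.10) in ipL_KO against Tmx_KO, Nr1i3 (-1.48) and Ppara (-0.088) in ipL_KO against Non_KO, and Ltf (0.74) and Greb1 (0.29) in Tmx_KO against Non_KO. Without Tmx_KO3 and ipL_KO1 it changed for Nr1i2 (-0.23), Nr1i3 (-1.21), Pparg (-0.29) and Nr1h4 (-0.16) in ipL_KO against Tmx_KO, and Nr1i3 (1.31), Nr3c1 (0.34), Abcg5 (0.021) and Greb1 (0.62) in Tmx_KO against Non_KO. Other changes of sign were Nr1i2 with quantile normalization (-0.018), Nr1i3 with edgeR (-0.16) and DESeq2 (-0.14), and Pparg with median-ratio scaling (-0.0054) in ipL_KO against Tmx_KO, Nr1i3 with a pseudocount of 1 (-0.068), quantile normalization (-0.10), edgeR (-0.71) and DESeq2 (-0.72) in ipL_KO against Non_KO, and Greb1 with a pseudocount of 1 (0.076) and edgeR (0.0024) in Tmx_KO against Non_KO. When 1 library was left out, values that crossed 0 ranged in Tmx_KO against Non_KO from -1.10 to 0.021 for Abcg5, -0.67 to 0.62 for Greb1, -0.74 to 0.87 for Ltf, -2.16 to 1.31 for Nr1i3 and -0.76 to 0.34 for Nr3c1. In ipL_KO against Non_KO they ranged from -0.60 to 0.087 for Nr1i2, -1.48 to 1.27 for Nr1i3, -1.06 to 0.029 for Nr3c1 and -0.088 to 1.38 for Ppara. In ipL_KO against Tmx_KO they ranged from -0.079 to 0.25 for Nr1i2, -0.996 to 1.44 for Nr1i3, -0.71 to 0.078 for Nr3c1, -0.11 to 0.27 for Pparg and -0.19 to 0.039 for Rxra. Depth limits Esr1, with at most 4 reads, and Nr1i3 in Non_KO2 and Tmx_KO3, with 8 and 0 reads.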

Other observations

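Over the 8 libraries other than Non_KO2 and Tmx_KO3, the genes whose log2(FPKM + 0.1) followed a receptor most closely were sought among 10575 genes whose mean reached 1 FPKM. The libraries share the split into Non_KO and knockout mice, so any gene that differs between these groups will follow a receptor that does, and the r carry no p. Nr1h3 was followed by Otop3 (r = 0.99), Cpq (r = 0.99) and Fmo1 (r = 0.99), and over all 10 libraries the r of Nr1h3 with these genes were 0.76, -0.22 and 0.88. Rxra was followed by Acp6, Ces1f and Ccl6 (r = 0.99 each), at 0.92, 0.97 and 0.93 over all 10 libraries. Ppard was followed by Ccl28, A130014A01Rik and Snph (r = 0.97, 0.97 and 0.96), at 0.83, 0.95 and 0.92 over all 10. Pparg was followed by Nme4, Orai2 and Cyth3 (r = 0.98, 0.98 and 0.97), at 0.36, 0.74 and 0.98 over all 10.

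The summed level of the 10 receptors was 164, 253 and 248 FPKM in Non_KO2, Non_KO4 and Non_KO5, between 104 and 193 FPKM in Tmx_KO, and between 135 and 192 FPKM in ipL_KO. The lowest sum of Non_KO and of Tmx_KO was in each case that of the library with few detected genes.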
